A study of Mus musculus with 32 samples.

Results

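The 8 genes described here encode the endothelin and apelin peptides and the proteins through which they act: the endothelins *Edn1*, *Edn2* and *Edn3*, the endothelin receptors *Ednra* and *Ednrb*, the endothelin-converting enzyme *Ece1*, the apelin precursor *Apln* and the apelin receptor *Aplnr*. They were found by gene name among the probes of a mouse gene expression array, and the set was chosen by the levels of *Edn1* and *Apln* in these samples. The 8 genes were measured by 9 probes, of 55681 in all, and *Ednrb* was the gene with more than 1 probe. *Edn1* and *Apln* had been singled out by their levels in TME endothelial, Kupffer and Ito cells, and *Edn1* by its level in TME against control endothelial cells. Those comparisons are therefore given as values, with no test.

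RNA was taken from liver endothelial, Ito (stellate) and Kupffer cells of male Balb/c mice aged 6 to 8 weeks. The mice had received C26 cells, a colon carcinoma line of the same strain, into the spleen (the tumor microenvironment groups ET, IT and KT, for TME) or PBS (the control groups EC, IC and KC), and liver cells were isolated 14 days later. CRC primary tumor cells (TP) and tumor liver metastasis cells (TM) were collected from the induced CRC mice. Each of the 8 groups had 4 samples, and 16 arrays carried 1 Cy3 and 1 Cy5 sample each. Control and TM samples were always Cy3, and TME and TP samples always Cy5, so dye cannot be told apart from TME or from primary tumor. Endothelial and Ito samples were on 1 slide and Kupffer and tumor samples on the other, so a Kupffer difference from endothelial or Ito cells and a slide difference cannot be told apart. The liver cells were separated by density gradient and adherence and kept in culture for up to 24 h. Whether a replicate was 1 mouse or a pool of mice is not given in the sources used here.

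Endothelin-1 is made mainly by endothelial cells as a long precursor, which furin and then *Ece1* cut to the active peptide. It constricts vessels through *Ednra*, while *Ednrb* on endothelial cells also triggers nitric oxide release, and in the liver both receptors are known on stellate cells, whose contraction narrows the sinusoids. Apelin acts through *Aplnr*, relaxes vessels and promotes the growth of new ones, and is known as a product of sprouting endothelial cells and of some tumors.

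Levels are log2 of the deposited quantile-normalized signal. Here 1 unit is a 2-fold difference. Levels of different genes come from different probes and are not compared with each other. A signal counts as measured where the scanner program marked the probe as well above the local background (for *Edn1*, on 5 or more of its 10 spots).

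Some channels stood apart, and where leaving them out changed the call of a member with measured signal, the value without them is given beside the result. The fourth Ito array and the fourth Kupffer array gave TME minus control values of reversed sign, correlating at -0.66 and -0.60 with the mean of the remaining arrays of their cell type (17105 probes). IC replicate 4 was nearest to IT replicate 1 and IT replicate 4 to IC replicate 1, while KC replicate 4 was nearest to KT replicate 1 and KT replicate 4 to KC replicate 1. Whether TME and control samples were exchanged on these arrays was not tested. The labels were kept as given, and all IC, IT, KC and KT means depend on them. Of the tumor arrays, arrays 1 and 4 had primary minus metastasis values correlating at -0.20 and -0.07 with the remaining arrays, against 0.64 on arrays 2 and 3. IT replicate 2 was far from every sample (SD of the log2 differences to the nearest one, ET replicate 4, 0.94). It had the lowest summed sinusoidal endothelial markers of the liver channels (12.92) and the highest summed epithelial markers (15.21). That epithelial sum rested on *Krt8* (15.13), as *Krt7* (2.35) and *Epcam* (2.32) were well above background in no IT channel. *Krt19* was at 7.47, against 3.45 to 4.19 in the other IT channels. *Acta2* was at 12.50 and *Des* at 9.87, against 5.85 to 6.47 and 5.55 to 5.71 in the other IT channels. KC replicate 3 was far from the rest of its group (0.79). EC replicates 1 and 4, EC replicates 2 and 3, and KT replicates 1 and 2 differed by no more than the spots of a probe do within an array (1.04, 1.08 and 1.02 times that noise). Each of those pairs was counted as 1 sample in every mean ± SD, which leaves n = 2 for EC and n = 3 for KT, while the other groups keep n = 4. As each group holds at most 4 arrays, their number limits the precision.

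In control cells the summed sinusoidal endothelial markers set the endothelial fraction apart, but not every marker did, and the liver fractions were mixed. The summed level of 8 sinusoidal endothelial markers was 16.14 to 16.32 in EC, 14.63 to 15.13 in IC and 14.32 to 14.69 in KC. Of these markers, *Oit3*, *Clec4g*, *Fcgr2b*, *Kdr* and *Pecam1* were higher in every EC channel than in any IC or KC channel. *Stab2* and *Lyve1* were not. *Stab2* was at most 11.3 in EC, against 11.7, 11.72 and 11.99 in KC replicates 1, 2 and 4 and 9.87 in KC replicate 3. *Lyve1* was at most 12.42 in EC, against 12.71 to 12.85 in IC replicates 1 to 3 and 10.92 in IC replicate 4. *Cdh5*, a junction protein of endothelial cells, lay between 13.82 and 14.02 in EC and between 12.55 and 13.81 in IC, and *Clec4f*, which defines Kupffer cells, between 14.35 and 15.88 in IC. Of the Ito markers, *Lrat* was measured in 2 of 4 IC and 0 of 4 IT channels, and *Dcn* was at least as high in EC (17.91 to 18.31) as in IC (17.01 to 18.10). The summed level of 6 hepatocyte markers was 17 to 18.33 in IC, against 15 to 15.27 in EC and 13.87 to 15.87 in KC. In TM and in TP, 5 of the 8 sinusoidal endothelial markers and 3 of the 9 Kupffer markers were measured in no channel. In such bulk fractions, fewer cells of a type and less RNA per cell cannot be told apart. The part of these mixtures in the results below was not tested.

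The probe sequences show which stretch of each transcript was read, and the first 30 of the 60 bases are given for the members on which the results turn (positions in mm9, the build of the array files).
Edn1, chr13:42403101-42403160, plus strand: cagtaaaaatatgttcccgtatgtattgta
Apln, chrX:45378593-45378652, minus strand: gtcctttggcatctgttcgaatgtcctcat
Ednra, chr8:80186985-80187044, minus strand: ggccctggtaactctactgggcattttccc
Ednrb, chr14:104220870-104220929, minus strand: tataccctgatgacctgcgaaatgctcagg
Ednrb, chr14:104214484-104214543, minus strand: aaggacgccccagatcttcaattttaagtt
Ece1, chr4:137519606-137519665, plus strand: aaaggcagagtaatgaccttcatatcacgt
The *Edn1* probe is printed at 10 places on the array, and the others at 1 place each. Both *Ednrb* probes lie in the same gene, and the first listed, with the higher variance over the 32 channels, stands for the gene.

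The levels of *Edn1* and *Apln*, which were picked together by their TME levels, varied together across the liver channels. The stretch before their starts is therefore shown as well, from RefSeq on GRCm38.p6. Both strands were searched, from 250 bases before to 50 after each start. The AP-1 motif was TGACTCA, or TGAGTCA as its other form. The GATA motif was AGATAA, and the form TGATAA was searched too. The core of the hypoxia response element was taken as ACGTG, and also as GCGTG. The TATA box was TATAAA. Matches are in capitals.
Edn1, chr13:42301226-42301475, plus strand, before the start: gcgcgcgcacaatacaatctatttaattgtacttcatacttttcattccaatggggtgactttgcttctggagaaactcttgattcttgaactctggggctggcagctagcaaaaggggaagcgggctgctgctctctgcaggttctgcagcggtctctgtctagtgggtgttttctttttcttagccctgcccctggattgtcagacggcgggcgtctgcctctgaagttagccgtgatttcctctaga
Edn1, chr13:42301484-42301501, plus strand, after the start: TTATCTctggctgCACGT
Apln, chrX:48034854-48035103, minus strand, before the start: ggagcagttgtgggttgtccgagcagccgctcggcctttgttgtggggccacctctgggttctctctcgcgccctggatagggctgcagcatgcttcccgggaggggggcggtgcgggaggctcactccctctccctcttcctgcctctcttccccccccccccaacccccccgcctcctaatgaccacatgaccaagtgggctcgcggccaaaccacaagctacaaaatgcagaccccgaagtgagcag
In the *Edn1* window a GATA match (TTATCT, the reverse of AGATAA) lay 9 bases after the annotated start and a hypoxia core match (CACGT, the reverse of ACGTG) 22 bases after it. The *Apln* window held none of the 4 motifs. GATA matches occur in 18.6% and hypoxia core matches in 43.8% of the 32851 mouse windows of the same length, AP-1 matches in 5.20% and TATA matches in 13.6%. A match of this kind is a description of the sequence.

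Among the liver cells, *Edn1* was highest in TME endothelial cells and lowest in Ito cells. Its levels in ET replicates 1 to 4 were 11.20, 13.30, 11.42 and 11.22, and in EC 9.75, 10.57, 10.58 and 9.62. Every ET channel was above every EC channel. In KC they were 9.68, 9.67, 7.90 and 8.84, and in KT 9.04, 8.95, 9.03 and 9.69. The Kupffer groups overlapped with each other and with EC. In IC they were 7.35, 7.32, 7.33 and 4.61, and in IT 4.26, 7.21, 4.17 and 7.46, with IT replicate 3 not well above background. The Ito channels thus fell at a higher level, near 7.3, in IC replicates 1 to 3 and IT replicates 2 and 4, and a lower one, near 4.3, in IC replicate 4 and IT replicates 1 and 3. The means of the liver groups ranked ET (11.78 ± 1.01, SD, n = 4), EC (10.13 ± 0.63, n = 2), KT (9.24 ± 0.39, n = 3), KC (9.02 ± 0.84, n = 4), IC (6.65 ± 1.36, n = 4) and IT (5.77 ± 1.81, n = 4). Of these neighbours, ET and EC did not overlap, nor did KC and IC, while EC and KT, KT and KC, and IC and IT did.

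The deposited *Edn1* value was that of the first of the 10 spots in every channel, not their mean. The same held for 99.9% of the values of the 432 probes printed more than once (within 0.01 on the log2 scale). In the liver cells the levels changed little, as ET minus EC was 1.70 with the mean of the 10 spots and 1.65 with the single spot. In the tumors it mattered: TM replicate 1 was listed at 6.06 and TP replicate 1 at 5.63, both from a spot that the scanner program marked as an outlier. The other 9 spots had medians of 2.26 and 2.30 in those channels. The other 6 tumor channels were listed at 2.03 to 2.26. *Edn1* was thus measured in 0 of 8 tumor channels, and the SDs of 1.99 in TM and 1.75 in TP came from these outlier spots. The fit used below pools the spread over all groups, so these spots also enter the SE of *Edn1* in comparisons of liver cells.

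**Figure D1:**
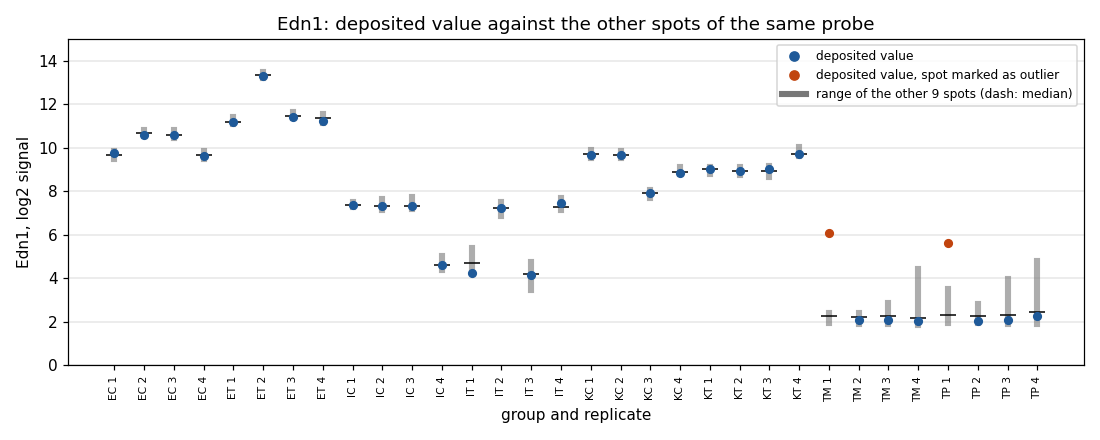
Log2 signal of *Edn1* in each of the 32 channels (horizontal axis: group and replicate). Dots are the deposited values, gray bars the range and dashes the median of the other 9 spots of the same probe; the deposited values of TM 1 (6.06) and TP 1 (5.63) lie far above their other spots, at medians of 2.26 and 2.30.

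*Apln* followed *Edn1* in the liver cells but, unlike it, was high in the tumor cells. Its levels in ET were 9.80, 11.68, 9.95 and 9.81, and in EC 6.39, 9.04, 8.95 and 6.33. Within EC the level was low in replicates 1 and 4 and high in replicates 2 and 3, the pairs that were counted as 1 sample each, and all ET channels lay above them. In KC they were 7.12, 7.16, 6.26 and 7.89, and in KT 7.67, 7.67, 7.69 and 7.37. In IC they were 5.64, 6.06, 5.75 and 3.04, and in IT 2.39, 4.71, 3.76 and 5.27, with 3 of 4 IC channels but 1 of 4 IT channels well above background. All 8 tumor channels were measured, between 9.49 and 9.82 in TM and between 9.02 and 10.25 in TP. The means ranked ET (10.31 ± 0.92, n = 4), TM (9.68 ± 0.14, n = 4), TP (9.63 ± 0.67, n = 4), EC (7.68 ± 1.86, n = 2), KT (7.58 ± 0.18, n = 3), KC (7.11 ± 0.67, n = 4), IC (5.12 ± 1.40, n = 4) and IT (4.03 ± 1.26, n = 4). Among neighbours in that order, KC and IC did not overlap and all other pairs did.

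**Figure D2:**
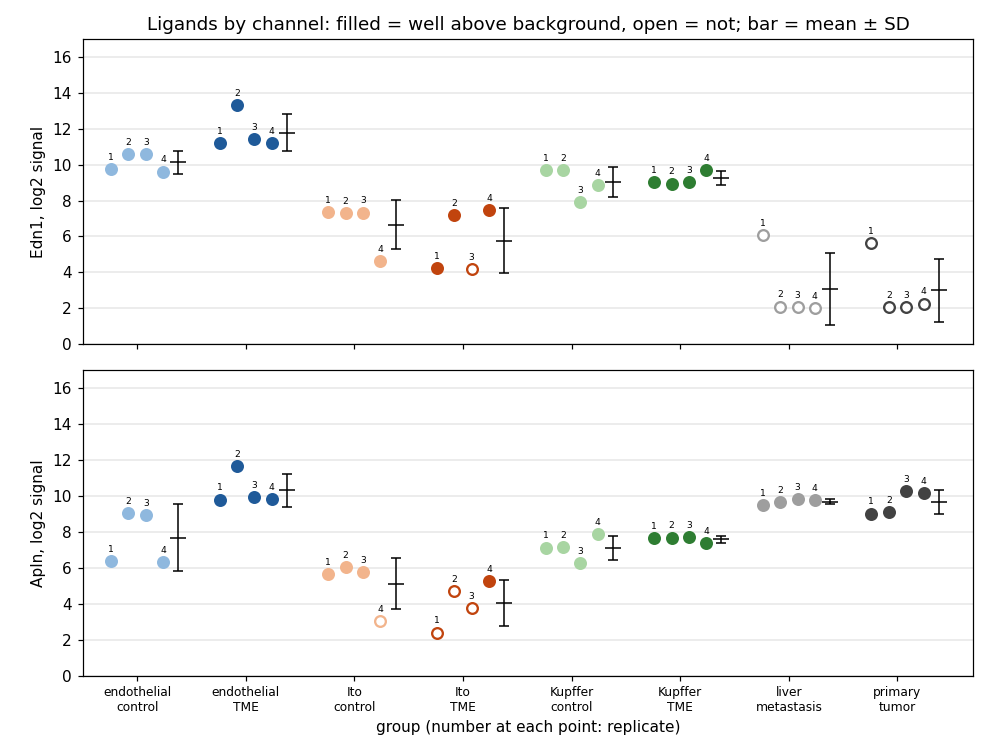
Log2 signal of *Edn1* (top) and *Apln* (bottom) in each channel of the 8 groups. Filled points are well above background and open points are not, the number is the replicate, and the bar is the mean ± SD with near-identical channels counted once; the ET channels of *Edn1* (11.20 to 13.30) lie above all other channels, and *Apln* is as high in the tumors (9.02 to 10.25) as in 3 of the 4 ET channels.

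The steps between TME cell types by which *Edn1* and *Apln* had been picked were 2.61 for ET minus KT and 3.41 for KT minus IT in *Edn1*, and 2.71 and 3.57 in *Apln*. These are log2 differences of group means. Their size at the lower end depended on the background correction, since ET minus IT in *Apln* was 6.28 in the deposited values and 3.97 after a correction that lifts dim signals (normexp with an offset of 50). No other member fell by 2 or more at both steps. *Ece1*, for example, was 1.13 lower in KT than in ET and 0.26 lower in IT than in KT.

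The remaining endothelins were not measured. *Edn2* and *Edn3* were well above background in 0 of 32 channels, with levels of 1.87 to 4.14 and 1.94 to 2.54. *Aplnr*, the receptor of apelin, was well above background in 1 ET and 1 TP channel and had levels between 1.94 and 5.03, so no difference between its groups rests on measured signal.

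The endothelin receptors were present in all liver fractions. *Ednra*, the receptor that mediates constriction, was measured in all 24 liver channels, between 10.20 and 12.30. Its mean levels were 12.04 ± 0.21 in IT, 11.79 ± 0.28 in IC, 11.77 ± 0.57 in EC, 11.40 ± 0.45 in ET, 10.57 ± 0.40 in KC and 10.37 ± 0.21 in KT. Adjacent groups in this order overlapped. *Ednrb*, the receptor that also clears endothelin, was highest in Ito cells. Its levels were 13.93, 13.71, 13.74 and 12.50 in IC. In IT they were 12.72, 9.89, 12.77 and 13.43, and the low value is that of replicate 2, the sample with the high *Krt8*. The other 4 liver groups lay between 9.96 and 11.13. The second *Ednrb* probe ranked the liver groups alike (14.29, 14.15, 14.11 and 13.34 in IC against 10.77 to 11.04 in EC) and correlated with the first across the 24 liver channels (Pearson r = 0.99).

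*Ece1*, which releases active endothelin from its precursor, was measured in all 32 channels. It was highest in endothelial cells, at 9.85 to 10.50 in EC and 10.10 to 10.49 in ET. It lay at 8.98 to 9.91 in KC, 8.92 to 9.83 in KT, 8.66 to 9.07 in IC and 8.62 to 9.08 in IT. The Ito channels were all below the endothelial channels, and the Kupffer channels overlapped both.

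**Figure D3:**
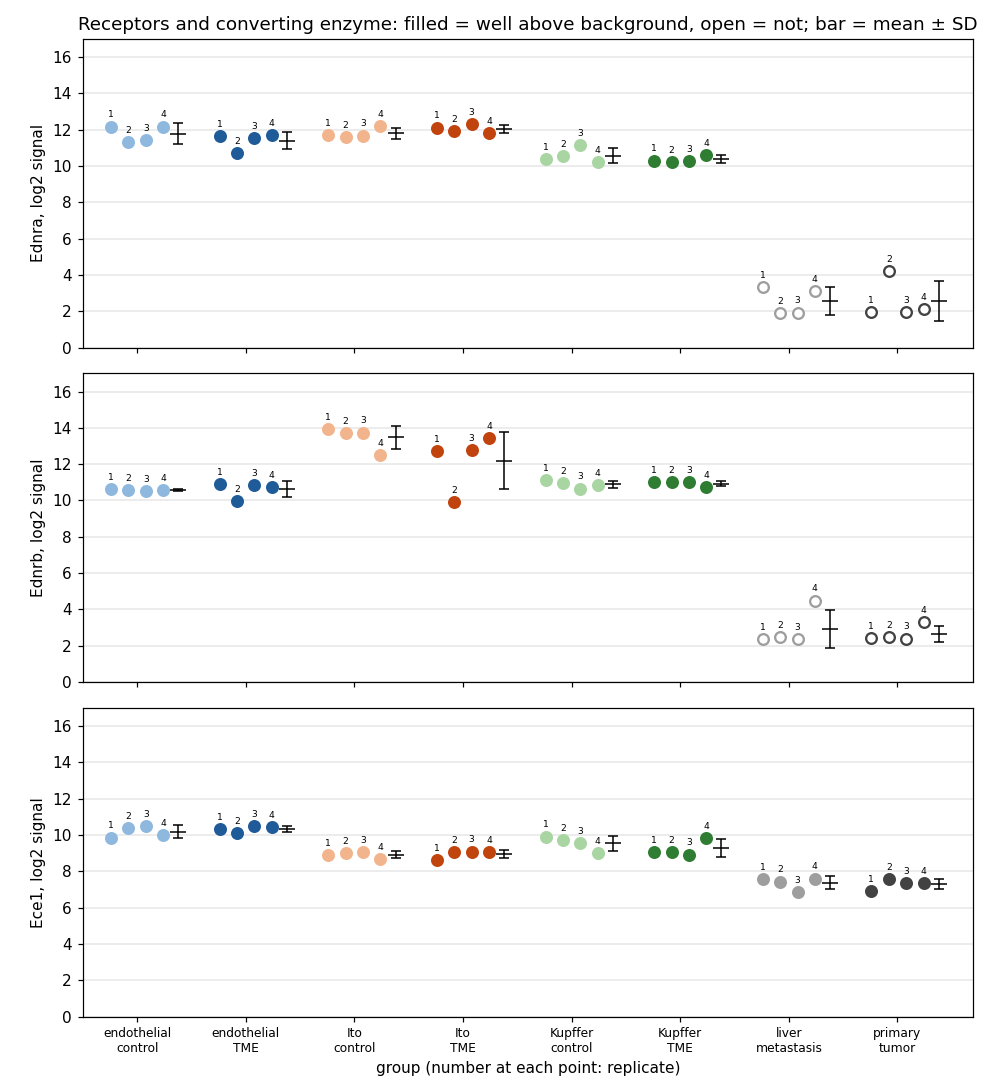
Log2 signal of *Ednra* (top), *Ednrb* (middle) and *Ece1* (bottom) in each channel of the 8 groups, with points, numbers and bars as in the plot of the ligands. *Ednra* and *Ednrb* are open (not well above background) in all 8 tumor channels, *Ednrb* is highest in control Ito cells (12.50 to 13.93), and *Ece1* is measured everywhere.

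The comparison of TME with control cells asks what the metastasis-bearing liver changed in each cell type. It was tested in 1 fit of all 32 channels (limma, Benjamini-Hochberg over all probes, called at an adjusted p under 0.05), leaving out *Edn1* in endothelial cells. The ET, IT and KT levels of *Apln* and *Edn1* were among those by which the genes had been picked, so tests against those groups are not independent of that choice. In endothelial cells *Apln* was 2.63 ± 0.67 (SE) higher in TME on the log2 scale, a 6.20-fold difference, and was higher on 4 of 4 arrays (by 3.41, 2.64, 1.00 and 3.48; limma adjusted p = 0.049, range 0.0012 to 0.46 over the alternatives). It was the 1 member called among 7 tested genes, against 1.14% of all probes. Its ET level was among those by which it was picked, so nothing is read from this count. The call was lost without any one of the 4 replicates (adjusted p = 0.13 to 0.46) and when the near-identical EC channels were averaged (adjusted p = 0.32, with 0.338% of all probes called). *Edn1* was higher on 4 of 4 arrays, by 1.45, 2.73, 0.84 and 1.60 (mean 1.65), as a description. *Ednra*, *Ednrb* and *Ece1* differed by -0.37 ± 0.39, 0.05 ± 0.51 and 0.15 ± 0.22, and none was called (each adjusted p = 1). Other cells' markers moved with these samples. The summed level of 5 neutrophil markers was 11.65 to 12.83 in ET against 8.85 to 9.64 in EC. That of 5 markers of other vascular endothelium was 11.86 to 12.14 against 10.43 to 10.99. That of 8 sinusoidal endothelial markers was 15.04 to 15.70 against 16.14 to 16.32, but not every marker of this set fell. *Clec4g*, *Fcgr2b*, *Kdr* and *Cdh5* were lower in every ET channel than in any EC channel. *Stab2* was higher in every ET channel (11.53 to 11.85) than in any EC channel (10.71 to 11.3). *Lyve1*, *Oit3* and *Pecam1* overlapped. ET replicate 2, the highest ET channel in both *Edn1* and *Apln*, stood apart from the other ET channels in other marker sums. Its erythroid sum was 14.52 against 8.20 to 9.88, and its hepatocyte sum 15.07 against 13.61 to 13.75. Its epithelial sum was 12.02 against 9.54 to 9.82. The part of all these markers in the *Apln* and *Edn1* differences was not tested.

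In Ito cells no member was called between TME and control (0.289% of all probes were). *Apln* differed by -1.09 ± 0.67 (adjusted p = 0.60), *Edn1* by -0.88 ± 0.91 (0.83) and *Ednrb* by -1.27 ± 0.51 (0.41). On arrays 1 to 3 each of these genes was lower in TME, *Apln* by -3.25, -1.34 and -1.98, *Edn1* by -3.09, -0.11 and -3.16, and *Ednrb* by -1.22, -3.83 and -0.97. On array 4 they were higher by 2.23, 2.85 and 0.93. Without array 4 of both the Ito and the Kupffer cells, 7.66% of all probes were called, and *Ednrb* was among them (-2.0, adjusted p = 0.029), though its second probe was not (-1.85, 0.067) and array 2 holds the low IT replicate 2. *Apln* was called as well (-2.19, adjusted p = 0.045), but was not well above background in any of IT replicates 1 to 3, so this difference has no measured signal on its TME side. *Edn1* was not called (-2.12). Alongside, the summed neutrophil markers were 9.38 to 9.63 in IC replicates 1 to 3 and 9.74 in IT replicate 4, against 13.80 in IC replicate 4 and 12.97 to 13.68 in IT replicates 1 to 3. *Apln*, *Edn1* and *Ednrb* were lower in the channels where these markers were higher, though *Edn1* in IT replicate 2 (7.21) only slightly. Other marker sums were also higher in IC replicate 4 and IT replicates 1 and 3. There the Kupffer sums were 18.46 to 18.74, the hepatocyte sums 18.01 to 18.33 and the erythroid sums 16.31 to 16.61. In IC replicates 1 to 3 and IT replicate 4 they were 16.44 to 16.74, 17 to 17.26 and 14.76 to 14.81. In IT replicate 2 they were 14.65, 17.09 and 15.51. The part of these markers in the result was not tested.

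In Kupffer cells no member was called either (0.436% of all probes were). *Apln* differed by 0.49 ± 0.67, *Edn1* by 0.16 ± 0.91, *Ednra* by -0.22 ± 0.39, *Ednrb* by 0.05 ± 0.51 and *Ece1* by -0.33 ± 0.22 (adjusted p = 0.80 to 1.00). *Ece1* was lower in TME on arrays 1 to 3, by -0.87, -0.68 and -0.62, and higher by 0.85 on array 4. Without array 4 it was called (-0.72, adjusted p = 0.048; 3.85% of all probes). The summed neutrophil markers were 11.26 to 11.58 in KC and 13.35 to 13.46 in KT replicates 1 to 3, and the summed Kupffer markers 16.34 to 17.46 and 18.56 to 18.59. In replicate 4 the neutrophil sums were 13.65 in KC and 11.39 in KT, and the Kupffer sums 19.06 and 17.54. Their part in the *Ece1* result was not tested.

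**Figure D4:**
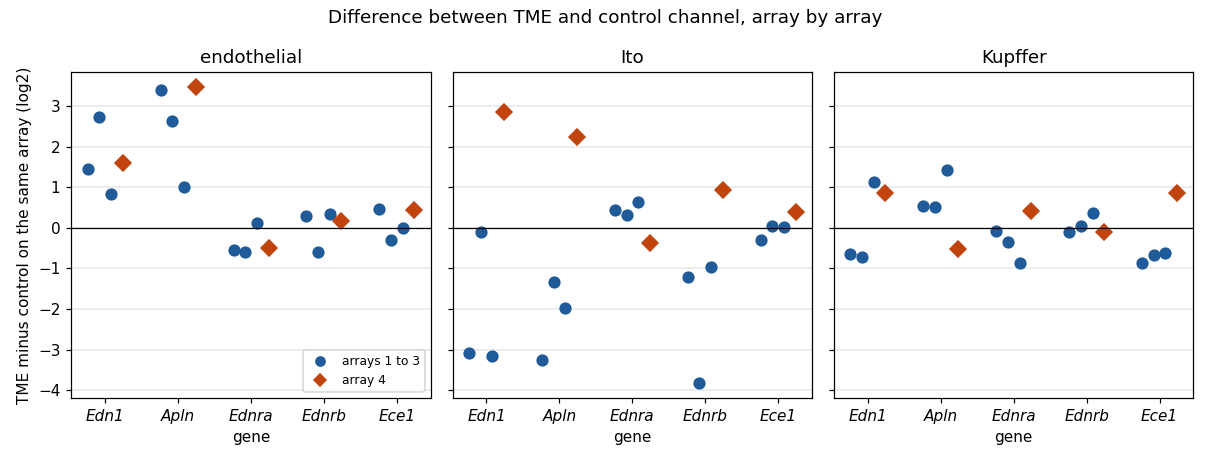
Log2 signal of the TME channel minus that of the control channel on the same array, for 5 genes (horizontal axis) in endothelial, Ito and Kupffer cells. Circles are arrays 1 to 3 and diamonds array 4; *Apln* and *Edn1* lie above 0 on all 4 endothelial arrays, and in Ito cells array 4 lies on the other side of 0 from the rest for *Edn1*, *Apln*, *Ednra* and *Ednrb*.

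Whether the change differed between cell types was tested directly. No tested member's change was called as different between any pair of cell types. Of all probes, 0.111% (endothelial against Ito), 0.0808% (endothelial against Kupffer) and 0.00359% (Ito against Kupffer) were called. *Edn1* was tested for Ito against Kupffer cells alone, because its endothelial difference was used to pick it. Whether its endothelial change differed from the Ito or Kupffer change was not tested. For *Apln* the endothelial change exceeded the Ito change by 3.72 (limma adjusted p = 0.17). This value holds the ET minus IT step by which *Apln* was picked. Its test is not independent of that choice, and the value is given as a description. Without array 4 of the Ito and Kupffer cells 1.67% of all probes were called for endothelial against Ito. No tested member other than *Apln* was.

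The control cells show which liver cells carry each member without tumor. Between EC and IC, which share a slide and a dye, 4 of the 8 genes were called, against 9.89% of all probes. *Edn1* was higher in EC by 3.48 ± 0.91 (adjusted p = 0.013), *Apln* by 2.56 ± 0.67 (0.013) and *Ece1* by 1.28 ± 0.22 (0.0002), and *Ednrb* was lower by 2.91 ± 0.51, a 7.51-fold difference (0.00032). No channel of either group overlapped with the other in any of the 4 genes. *Aplnr*, with no measured channel in either group, did not overlap either. The share of all probes without overlap was not computed, so nothing is read from this. With the near-identical EC channels averaged, *Ednrb* and *Ece1* stayed called, whereas *Edn1* (adjusted p = 0.12) and *Apln* (0.082) did not (3.93% of all probes). Without the array 4 samples *Edn1* was 2.80 higher (0.058) and *Apln* 1.86 higher (0.054). *Ednra* differed by -0.01 ± 0.39.

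Against Kupffer cells, slide and cell type cannot be told apart. EC was higher than KC in *Ednra* by 1.20 ± 0.39 (adjusted p = 0.027) and in *Ece1* by 0.66 ± 0.22 (0.029). *Aplnr*, with no measured channel in either group, also passed, so 3 of 8 genes were called against 21% of all probes. None was called with the EC pairs averaged (adjusted p = 0.13 for each, 12.4% of all probes) or without the array 4 samples (0.066 to 0.093), and *Ece1* was not called without KC replicate 3 (adjusted p = 0.051). KC was lower than IC in *Ednrb* by 2.57 ± 0.51 (0.00081) and in *Ednra* by 1.22 ± 0.39 (0.034), and higher in *Apln* by 1.99 ± 0.67 (0.044), which makes 3 of 8 genes against 14.8% of all probes. *Edn1* was 2.37 ± 0.91 higher in KC (0.084), with an SE that holds the outlier tumor spots. Averaging its 10 spots gave a similar difference, 2.34, that was called (0.012). Without the array 4 samples *Ednrb* alone of the called genes remained so (-2.88), *Apln* was 1.03 higher in KC (0.37), and *Ece1* was called as 0.72 higher (0.018), as it was without IT replicate 2 (0.62, adjusted p = 0.049).

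Among TME cells, where *Edn1* and *Apln* were not tested, *Ece1* was called as higher in ET than in IT by 1.39 ± 0.22 (adjusted p = 9.2e-05) and than in KT by 1.13 ± 0.22 (0.00028). It was the 1 gene of 6 called in either comparison, against 8.26% and 21.8% of all probes. *Ednrb* was 1.59 ± 0.51 lower in ET than in IT (0.053), and was called without IT replicate 2 (-2.36, adjusted p = 0.00013). *Ednra* was 1.70 ± 0.39 lower in KT than in IT (0.0033), the 1 gene called there against 15.2% of all probes, and *Ednrb* was called there too without IT replicate 2 (-2.02, adjusted p = 0.00064). *Ednra* was 1.05 higher in ET than in KT (0.054), and passed without KC replicate 3, a sample of neither group (adjusted p = 0.0498).

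In the tumor cells both endothelin receptors and *Edn1* were below measurable signal, *Ece1* was lower than in liver cells, and *Apln* was higher than in Kupffer cells and than the mean of the liver groups, though ET (10.31) lay above TM (9.68) and TP (9.63). Against Kupffer cells, which share their slide and both dyes, 6 of the 8 genes were called, against 51% of all probes, and against all liver cells the same 6, against 54.6%. *Edn1* and *Apln* are among the 6. They were picked by their ET, IT and KT levels, some or all of which enter these comparisons. Their tests here are not independent of that choice. *Ednra* lay between 1.88 and 4.23 in the 8 tumor channels and was well above background in none. As only a bound exists on its tumor level, KC was at least 22.7-fold higher than TM and KT at least 17.9-fold higher than TP (limma adjusted p = 5.8e-19 for tumors against Kupffer cells). For *Ednrb* (2.36 to 4.48 in the tumors) the bounds were 21.2-fold and 20.7-fold (limma adjusted p = 8.2e-17 for tumors against Kupffer cells). For IC against TM, a pair that was not tested, the bound was 127-fold. The second *Ednrb* probe was well above background in 1 TM channel. For *Edn1* the bounds were 7.64-fold for KC against TM and 7.05-fold for KT against TP, on means in which outlier spots were left out. The test of *Edn1* used the deposited values, which hold the outlier spots (difference -6.06, adjusted p = 5.1e-09), and with the median of the 10 spots the difference was -6.82. The bounds were taken from loess- and Aquantile-normalized values, against the lowest signal that was well above background on the same array. *Ece1* was measured in both and was 2.03 ± 0.15 lower in the tumors (6.87 to 7.60 in TM, 6.91 to 7.58 in TP; adjusted p = 5.0e-12).

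*Apln* ran the other way, at 2.30 ± 0.47 higher in tumors than in Kupffer cells (4.93-fold, limma adjusted p = 0.00015) and 2.68 ± 0.39 higher than in all liver cells (9.6e-07). As stated above, neither test is independent of the choice of *Apln*. *Aplnr* was the other gene called as higher (by 1.24), on signals of which 1 of 8 tumor channels and no Kupffer channel was well above background. Between primary tumor and metastasis no member was called, where 3.01% of all probes were. *Apln* differed by -0.05 ± 0.67 and *Ece1* by -0.06 ± 0.22 (adjusted p = 0.98 to 1.00). TM replicate 1 was nearest to TP replicate 3 and TM replicate 4 to TP replicate 2.

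Other genes of the pathway were taken from a list of 40 genes (peptide processing, G proteins and arrestins, effectors, transcription regulators and related vasoactive peptides), of which 39 were on the array. The counts treat near-identical channels as separate samples unless stated. In TME against control endothelial cells 1 rose and none fell, against 1.14% of all probes, and this was *Plcb1*, a phospholipase downstream of both receptor families, at 5.08 against 3.06 (2.02 ± 0.35, adjusted p = 0.0018). It was well above background in 14 of 32 channels. None was called in Ito or Kupffer cells, but without array 4 3 rose and 3 fell in Ito cells (7.66% of all probes) and 1 each in Kupffer cells (3.85%). Between EC and IC, 11 were higher in EC and 2 lower, against 9.89% of all probes, and 3 were higher and 1 lower with near-identical channels averaged (3.93%). The list median was 0.29 against -0.01 over all probes. Among the higher ones were *Nos3*, the endothelial nitric oxide synthase (9.10 against 5.68, adjusted p = 1.1e-05), *Gata2*, a transcription factor known to act on *Edn1* (9.20 against 6.87, 2.2e-05), *Ramp2*, a partner of the adrenomedullin receptor (12.92 against 10.67, 0.019) and *Furin* (11.67 against 10.66, 0.0085). The lower ones were *Gna13* (9.67 against 10.76, 0.00059) and *Agt*, angiotensinogen (5.31 against 6.83, 0.038).

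The same list held 8 higher and 6 lower genes in EC against KC (21% of all probes), or 6 and 5 with channels averaged (12.4%). It held 10 higher and 3 lower in KC against IC (14.8%), or 9 and 1 with channels averaged (7306 of 55681 probes). *Nppb*, a natriuretic peptide, was 7.43 in KC against 4.18 in EC (adjusted p = 8.8e-06) and 5.47 in IC (0.004). Among TME cells the counts were 7 higher and 3 lower for ET against IT (8.26% of all probes), 10 and 7 for ET against KT (21.8%), and 6 and 1 for KT against IT (15.2%). In the tumors against Kupffer cells 8 were higher and 20 lower, against 51% of all probes (list median -0.41, all probes 0.11). These counts include genes with little measured signal: *Mme*, well above background in 0 of 32 channels, was called in ET against IT, in the tumors and in TP against TM, and *Plcb2*, in 3 of 32, in each comparison of Kupffer with endothelial or Ito cells and in the tumors. *Calcrl*, *Ramp2* and *Agtr1a*, parts of the adrenomedullin and angiotensin receptors, lay at 1.98, 3.95 and 2.29 in the tumors against 8.01, 10.40 and 7.13. *Plcb1* (8.32 against 2.51, adjusted p = 4.2e-17) and the converting enzyme *Ece2* (7.83 against 2.78, 9.7e-15) were higher there. Between TP and TM 2 were higher, 1 of them *Mme*, and 1 lower, against 3.01% of all probes. With channels averaged the counts were 1 and 0 (1372 of 55681 probes). *Adm*, adrenomedullin, was at 8.88 in TP and 5.21 in TM (0.034).

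Across the 24 liver channels, the levels of *Edn1* and *Apln* had a Pearson r of 0.95 and a Spearman rho of 0.90. The channels share arrays, groups and near-identical samples, so this is a description with no p. The ET, IT and KT levels by which both genes were picked are among these channels. Their likeness and its rank are therefore in part given by that choice. Among 14973 other genes, *Apln* ranked behind *Ankrd1* (r = 0.96) alone in likeness to *Edn1*, and *Mmp10* (0.93), *Lmcd1* (0.93) and *Thbs1* (0.92) followed. For *Apln*, *Edn1* ranked first, before *Thbs1* (0.90), *Mgll* (0.90), *Lmcd1* (0.89) and *Gm8221* (0.89). With the scanner signal, quantile normalized and with the spots of each probe averaged (14935 genes), *Apln* ranked first for *Edn1* (0.95) and *Prss23* took the place of *Thbs1*, while the 5 genes for *Apln* were as before. *Ankrd1*, a mechanically regulated cofactor of transcription, lay between 12.06 and 13.66 in endothelial channels, and near 7.8 in IC replicate 4 and IT replicates 1 and 3, the same Ito channels that were low in *Edn1*. Among the members, *Ece1* had r = 0.81 with *Edn1* and *Ednrb* r = -0.66, over the same channels.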

How the data were processed

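RNA of 32 samples was hybridised to 16 Agilent two-color mouse arrays, 2 samples an array, and scanned with Feature Extraction 10.7.3.1 (the authors' methods). The scanner files deposited by the authors hold intensity per spot and channel, with flags for background, saturation and outliers. The authors also deposited a table of linear, quantile-normalized intensity, 1 value per probe and channel, which for probes printed more than once carries the first spot. Groups came from the labels, and no column of the table was left unused (0). Replicates are numbered in the labels. Nothing in the labels ties them to animals, so p-values measure the spread between these samples.

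The deposited intensity was taken to log2, and 1 limma fit (limma 3.58.1, R 4.3.3) of the 32 channels to 8 groups tested each comparison, with Benjamini-Hochberg adjustment over 55681 probes and a call at an adjusted p under 0.05. A fold is 2 to the power of the log2 difference of the deposited values. The fit was tested on simulated data. The members and all gene, marker and motif lists were chosen with earlier results of these data known. All members are named, by every probe, and for *Edn1* and *Apln* the 5 genes of highest Pearson r over the 24 liver channels. For a gene with several probes, that of highest variance stands for it. Alternatives were the scanner signal with quantile normalization, normexp (offset 50) with quantile or with loess and Aquantile, scaling to the 75th percentile, only probes well above background, the shared array as a replicate block, only the groups compared, the methods' t-test, the study's threshold (adjusted p under 0.001 and 4-fold), and leaving out each replicate or array 4 of the Ito and Kupffer cells. Averaging near-identical channels, leaving out IT replicate 2 or KC replicate 3, and the mean or median of the 10 *Edn1* spots were chosen after seeing the data. No spot was saturated (0), and 38.4% to 57.1% of spots per channel were well above background, which limits what dim genes can show.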

Additional observations from a re-analysis of the deposited data

Results flagged for a closer look

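In 15 of 43 sets of 4 channels, 1 member's level stood far from the other 3 (Dixon's test for a group of 4), where independent values give about 1 in 20. The channels of a set were not all independent, as KT replicates 1 and 2 were near-identical. The same channels also recur across genes, so the count and this rate are not directly comparable. ET replicate 2 stood apart in *Edn1* (13.30), *Apln* (11.68), *Ednra* (10.73) and *Ednrb* (9.96, and 10.48 with the other probe). IC replicate 4 stood apart in *Edn1* (4.61), *Apln* (3.04), *Ednra* (12.20) and *Ednrb* (12.50). KT replicate 4 stood apart in *Edn1* (9.69), *Apln* (7.37), *Ednrb* (10.74) and *Ece1* (9.83). The remaining ones were KC replicate 3 in the other *Ednrb* probe (10.69) and IT replicate 1 in *Ece1* (8.62).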

How the results depend on the processing

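Of the counts of member genes called, those for tumors against Kupffer cells and against all liver cells were 6, and 5 to 8 over all alternatives run. TME against control endothelial cells fell from 1 to 0 with only the groups compared, with the methods' t-test, with near-identical channels averaged (with or without the array 4 samples) and at the study's threshold. It was 0 without each of replicates 1 to 4 (of all groups at once), and stayed 1 without IT replicate 2 or KC replicate 3, which are not in this comparison. TME against control Ito cells went from 0 to 2 without array 4 of the Ito and Kupffer cells (*Apln*, *Ednrb*) and to 1 with channels averaged as well, with 0 to 2 over the left-out replicates; Kupffer cells went from 0 to 1 without array 4. Primary tumor against metastasis gave 0 to 1 over the left-out replicates. EC against IC fell from 4 to 2 without array 4 and with channels averaged, with or without array 4, and to 1 at the study's threshold, with 2 to 4 over the left-out replicates. EC against KC fell from 3 to 1 with the t-test and to 0 without array 4, with channels averaged and at the study's threshold, with 0 to 3 over the left-out replicates. KC against IC went from 3 to 5 with only probes well above background and to 1 at the study's threshold, with 1 to 4 over the left-out replicates. ET against IT went from 1 to 2 (*Ednrb* added) under the scanner signal, both normexp settings, 75th percentile scaling and only probes well above background, and to 0 at the study's threshold, with 1 to 2 over the left-out replicates. ET against KT went from 1 to 2 under both normexp settings, percentile scaling, only probes well above background, the t-test and without array 4, to 3 with only the groups compared and to 0 at the study's threshold, with 1 to 2 over the left-out replicates. KT against IT went from 1 to 2 with loess and without array 4 and to 0 at the study's threshold, with 1 to 2 over the left-out replicates. The differences of the TME change went from 0 to 1 (*Apln*, whose TME levels were used to pick it, so nothing is read from it) with loess and without array 4, with or without averaging, with 0 to 1 over the left-out replicates. *Edn3*, measured in no channel, changed sign with percentile scaling in tumors against Kupffer cells (0.58, from -0.04) and against liver cells (0.60). The shared array as a replicate block (correlation 0.078) changed none of these counts; samples of the same number did not deviate together on every array, so the numbers were not taken as pairs, and *Apln* in endothelial cells kept its call with it (adjusted p = 0.033). The number of all 55681 probes called moved with the setting too. It went from 636 to 188 with channels averaged and to 2231 with the t-test in endothelial TME against control. Without array 4 it went from 161 to 4265 in Ito and from 243 to 2145 in Kupffer cells. EC against IC went from 5505 to 6530 without array 4 and to 2191 with channels averaged. The member counts are thus not set apart from the calls over all probes, and nothing is read from them. The cause of these changes was not tested.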
